A study of Mus musculus with 6 samples.

Results

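The circadian clock genes described here are 10 genes of the core transcription loop: the activator Arntl, the output factor Dbp, and the repressors Nr1d1, Nr1d2, Per1, Per2, Per3, Gm129 (now named Ciart), Bhlhe40 and Bhlhe41. They were chosen by name, with the differences between the genotypes on these same arrays already known, so their differences are given as a description and without a test. All 10 were found by symbol among the 23152 genes of the table, through 144 probe sets. They were measured in 6 samples of soleus, a hindlimb muscle, each from a male mouse of 18 weeks after an overnight fast of 14 h. The 3 MKO mice carried loxP-flanked (flox/flox) Gna13 alleles with Ckmm-Cre, in which the muscle creatine kinase promoter drives Cre recombinase in skeletal and heart muscle, so other cells of the tissue keep their alleles. The 3 WT mice carried the same Gna13 flox/flox alleles and are labelled with no Cre, so the presence of Cre and the loss of Gna13 cannot be told apart. Each mouse had 1 Affymetrix Mouse Gene 2.0 ST array. The clock time of tissue collection is not given in these sources.

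In the clock, ARNTL (also called BMAL1) pairs with CLOCK and binds E-box motifs in the promoters of its targets. Period and cryptochrome proteins, CIART, BHLHE40 and BHLHE41 repress that pair, while the nuclear receptors encoded by Nr1d1 and Nr1d2 (REV-ERBα and REV-ERBβ) repress Arntl itself through ROR response elements. Over a day Arntl RNA therefore runs roughly opposite to Dbp and Nr1d1 RNA in peripheral tissues, skeletal muscle included. The set is named for output and repressor genes, and Arntl belongs to it as the activator.

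Values are log2 values after robust multi-array averaging (RMA), a gene's value being the mean of its probe sets, and a difference is MKO minus WT on that scale with the standard error (SE) of the limma fit. Of the 10 genes, 8 were lower and 2 higher in MKO, with a median difference of -0.21, beside a median of -0.01 over all genes, of which 53.4% were lower. In 4 of the 10, Nr1d1, Gm129, Bhlhe40 and Bhlhe41, all MKO arrays lay below all WT arrays, and in 0 genes did they all lie above. Over all genes 4.99% were separated downward and 4.26% upward. As the genes were chosen on this contrast, nothing is read from their count. The fit called 0 of the 23152 genes at an adjusted p under 0.05 (limma, Benjamini-Hochberg), or 0%, and at an unadjusted p under 0.05 it held 444 genes higher (1.92%) and 558 lower (2.41%). After median centring of the arrays that split was 545 higher and 354 lower.

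**Figure D1:**
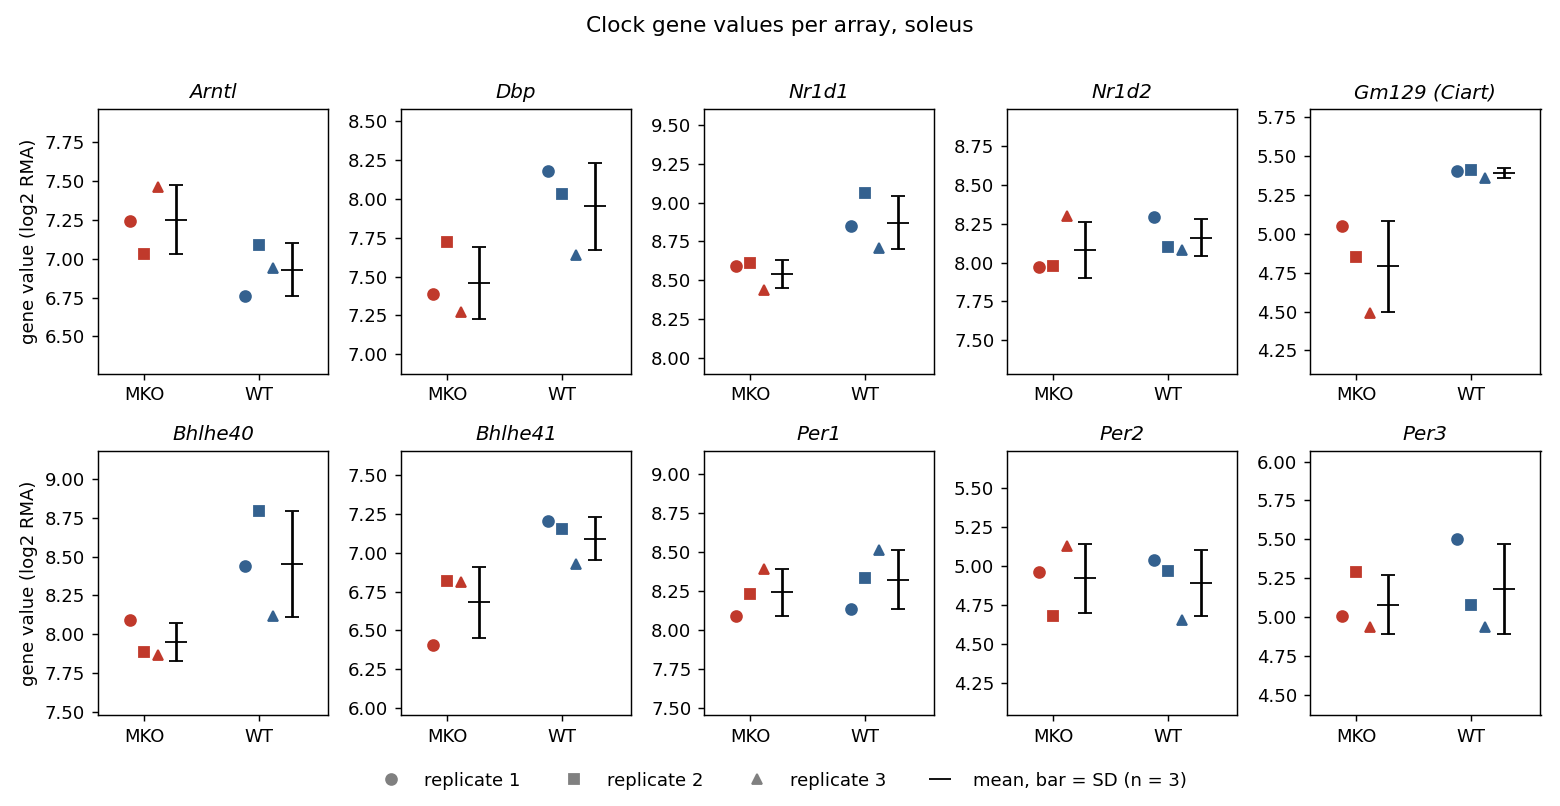
Gene values (log2 RMA, vertical axes, each spanning the same width) of the 10 clock genes in the 3 MKO arrays (red, left) and the 3 WT arrays (blue, right), with symbols for the replicates and the mean ± SD (n = 3) beside each group. Every MKO point lies below every WT point for Nr1d1, Gm129, Bhlhe40 and Bhlhe41, and the groups overlap for the other genes.

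The pan-muscle markers Acta1, Ckm, Myoz1, Des, Ttn, Myot and Mb had gene values between 9.34 and 12.55. MKO replicate 1 stood apart on the first principal component (33.6, 32.8% of the variance, other arrays -19.7 to 14.4) and MKO replicate 2 on the second (31.4, 20.5%, other arrays -12.8 to 1.1). The targeted gene Gna13 stood at 6.63, 6.78 and 6.92 in MKO replicates 1 to 3, against 6.53, 6.92 and 6.74 in WT (difference 0.04, SE 0.13). Among the 7 Gna13 probe sets, 17257825 was low in MKO (3.43, 4.25 and 4.33, against 5.48, 6.23 and 6.16 in WT), and 5 were higher. The exon that each one reads is not given in these sources. Relative to the WT mean, MKO replicate 1 was also low in the mean of 7 fibroblast markers (-0.49), 6 endothelial markers (-0.43), 6 macrophage markers (-0.37) and 9 fast fibre markers (-0.94). In the fast fibre list MKO replicate 1 was far from the WT mean for Myh4 (5.11, against 10.70) and Pvalb (5.64, against 7.73). These encode a fast myosin and a calcium buffer, and MKO replicate 1 was much nearer to the WT mean for the other genes. Myh4 was also low in MKO replicate 2 (7.94) and stood at 11.51 in MKO replicate 3. For the fibroblast, endothelial, macrophage and fast fibre lists, in that order, WT replicate 3 stood at -0.15, -0.22, -0.18 and 0.13. MKO replicate 2 stood at 0.03, -0.19, -0.15 and -0.30, and MKO replicate 3 at -0.15, -0.03, -0.09 and 0.14. All 6 endothelial markers were lower in MKO. Among them 1, Cldn5, had no overlap (-0.73, SE 0.15, limma adjusted p = 0.666), beside 4.99% of all genes. The list means of the other markers in MKO, against those in WT, ranged from -0.12 to 0.07 against -0.12 to 0.11 for slow fibres, -0.06 to 0.06 against -0.04 to 0.07 for satellite cells and -0.20 to -0.03 against -0.28 to 0.18 for tenocytes. They ranged from -0.17 to 0.04 against -0.07 to 0.05 for smooth muscle, -0.43 to 0.41 against -0.30 to 0.17 for adipocytes, and 0.13 to 0.24 against -0.05 to 0.09 for the 3 measured Schwann cell genes. Only 1 erythroid marker was measured. The part of these markers in the clock gene values was not tested. In whole muscle, fewer cells of a type and less RNA per cell cannot be told apart.

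Arntl, the activator, was higher in MKO. It stood at 7.24, 7.03 and 7.46 in MKO replicates 1 to 3, against 6.76, 7.09 and 6.94 in WT replicates 1 to 3. The groups overlapped by 1 array, as MKO replicate 2 lay below WT replicate 2. MKO averaged 7.25 ± 0.22 and WT 6.93 ± 0.17 (SD, n = 3 each). The difference was 0.32 (SE 0.13), or 1.24-fold higher, and 0.21 without MKO replicate 3. Of its 21 probe sets 18 were higher and 3 lower, with a range of -0.12 to 1.09 and a median of 0.35. Among all 233753 probe sets 52.1% were lower, 5.21% were lower with no overlap and 4.69% higher with no overlap, and the probe set counts of each gene of the set stand beside these shares. Without MKO replicate 2, or without WT replicate 2, no MKO array overlapped a WT array.

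Dbp, which encodes a PAR bZIP factor that carries the rhythm to metabolic genes through D-box motifs, was lower in MKO. It stood at 7.39, 7.72 and 7.27 in MKO, against 8.18, 8.03 and 7.64 in WT. WT replicate 3 was the low control array and lay below MKO replicate 2. MKO averaged 7.46 ± 0.23 and WT 7.95 ± 0.28 (SD, n = 3 each). The difference was -0.49 (SE 0.15), or 1.4-fold lower. All 7 Dbp probe sets were lower, by -0.94 to -0.14. Over probe sets brighter than the median probe set, the groups did not overlap and the difference was -0.55.

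Nr1d1 was lower in MKO and Nr1d2, its paralogue, differed little. Nr1d1 stood at 8.59, 8.61 and 8.44 in MKO, against 8.85, 9.06 and 8.71 in WT. The gap between the highest MKO and the lowest WT array was 0.10. MKO averaged 8.54 ± 0.09 and WT 8.87 ± 0.17 (SD, n = 3 each). The difference was -0.33 (SE 0.10), or 1.26-fold lower. Of its 12 probe sets 9 were lower, 6 of them with no overlap (5.21% of all probe sets). Probe set 17268894 stood at 9.32, 9.21 and 9.15 in MKO, against 10.14, 10.07 and 9.69 in WT. Probe set 17268897 went the other way with no overlap, at 7.31, 7.28 and 7.48 in MKO, against 7.25, 7.06 and 7.13 in WT. Of the 3 higher probe sets, 17268890 had the largest difference (0.72), at a mean level of 3.52, below the median probe set. The mean over probe sets sits nearer 0 than most of them. The median of the 12 probe set differences was -0.47. Taking the median of the probe sets in each array first gave a difference of -0.67 for the gene.

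Nr1d2 stood at 7.97, 7.98 and 8.30 in MKO, against 8.29, 8.10 and 8.08 in WT, a difference of -0.07 (SE 0.11). MKO replicate 3 lay with the highest WT array. None of its 8 probe sets separated the groups, and they ranged from -0.25 to 0.04. Whether the difference in Nr1d1 exceeds that in Nr1d2 was not tested, since both were chosen on this contrast.

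**Figure D2:**
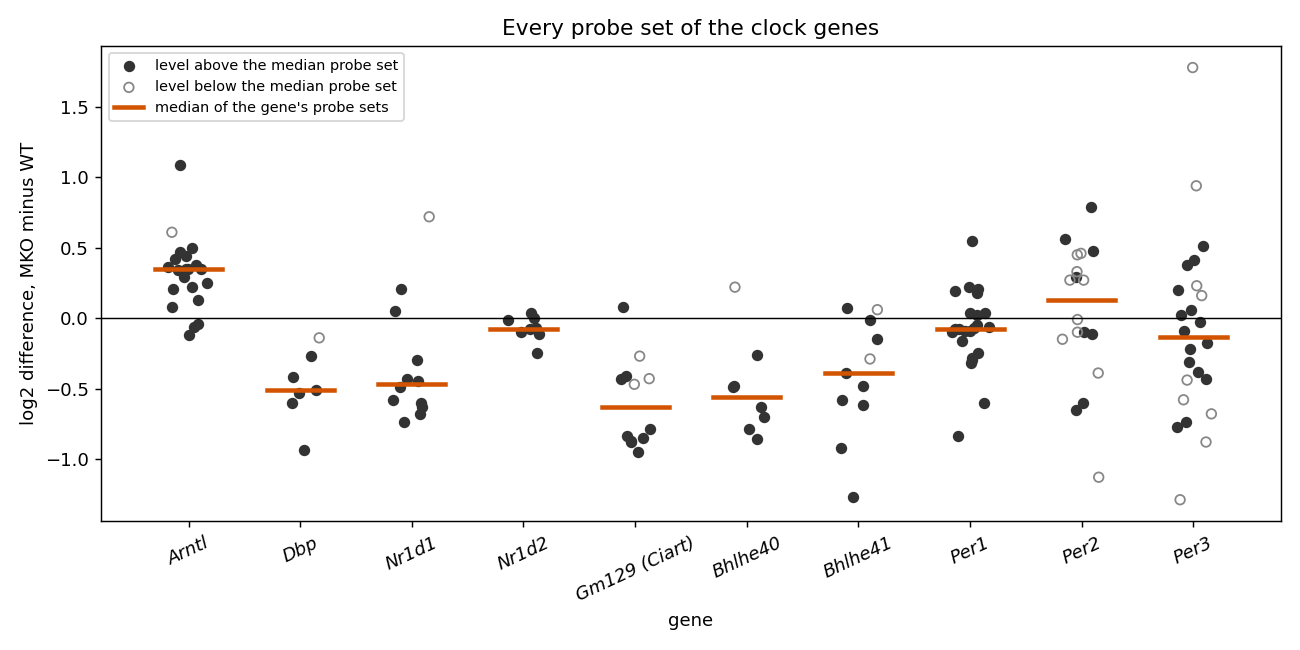
Difference of each of the 144 probe sets (MKO minus WT, log2, vertical axis) by gene (horizontal axis), filled where the probe set's mean level lies above the median probe set and open where it lies below, with the median of each gene as an orange bar. All 7 Dbp probe sets and 11 of 12 Gm129 probe sets lie below 0, while the 18 Per2 probe sets divide evenly.

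Gm129 encodes CIART (also called CHRONO), which binds ARNTL and represses its activity. It had the widest separation of the 10 genes. It stood at 5.05, 4.85 and 4.49 in MKO, against 5.40, 5.41 and 5.36 in WT. MKO averaged 4.79 ± 0.29 and WT 5.39 ± 0.03 (SD, n = 3 each), with a gap of 0.31 between the groups. The difference was -0.59 (SE 0.16), or 1.51-fold lower. Of its 12 probe sets 11 were lower, 5 of them with no overlap (5.21% of all probe sets), from -0.95 to 0.08. Only 9 of the 12 had a mean level above the median probe set. The brightest, 17407946 (0.08) and 17407938 (-0.43), overlapped between the groups. Over probe sets above the median level the gene differed by -0.66 (SE 0.23), with no overlap.

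Bhlhe40 and Bhlhe41 encode DEC1 and DEC2, basic helix-loop-helix repressors that bind the E-boxes used by CLOCK and ARNTL, and Bhlhe40 also responds to hypoxia and other stimuli. Bhlhe40 stood at 8.09, 7.89 and 7.87 in MKO, against 8.44, 8.79 and 8.12 in WT. The gap was 0.03, between MKO replicate 1 and WT replicate 3, and it closed after quantile normalization of the gene values and over probe sets above the median level. MKO averaged 7.95 ± 0.12 and WT 8.45 ± 0.34 (SD, n = 3 each). The difference was -0.50 (SE 0.14), or 1.41-fold lower, and it was -0.33 without WT replicate 2. Of its 8 probe sets 7 were lower, 4 with no overlap (5.21% of all probe sets).

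Bhlhe41 stood at 6.41, 6.82 and 6.81 in MKO, against 7.20, 7.15 and 6.93 in WT. Its lowest array was MKO replicate 1, and the gap between the groups was 0.11. The difference was -0.42 (SE 0.14), or 1.33-fold lower. It was -0.28 without MKO replicate 1 and -0.61 with the median of probe sets taken in each array. The median of its probe set differences was -0.39. Of its 11 probe sets 9 were lower, 4 of them with no overlap (5.21% of all probe sets). The largest difference (-1.27) was that of 17472768, at 7.15, 7.91 and 8.73 in MKO, against 9.46, 9.18 and 8.96 in WT.

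The Period genes had differences close to 0. Their proteins form the complex with cryptochromes that shuts down CLOCK and ARNTL, and Per1 is also induced directly by glucocorticoid and cAMP signals. Per1 stood at 8.09, 8.23 and 8.39 in MKO, against 8.13, 8.33 and 8.51 in WT, a difference of -0.08 (SE 0.12). Per2 stood at 4.96, 4.68 and 5.13 in MKO, against 5.04, 4.97 and 4.65 in WT, a difference of 0.04 (SE 0.17). Per3 stood at 5.01, 5.29 and 4.94 in MKO, against 5.50, 5.08 and 4.94 in WT, a difference of -0.10 (SE 0.17). In all 3 genes the arrays of the groups were interleaved. The probe sets of each pointed both ways, with 15 of 23 lower for Per1, 9 of 18 for Per2 and 14 of 24 for Per3. Only 8 of the Per2 and 15 of the Per3 probe sets had a mean level above the median probe set, against all 23 of Per1, so the Per2 and Per3 values include dim probe sets. The sign changed for Per1 without WT replicate 3 (0.01), for Per3 without WT replicate 1 (0.07), and for Per2 without MKO replicate 3 (-0.06), without WT replicate 3 (-0.08) and with array weights (-0.09).

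**Figure D3:**
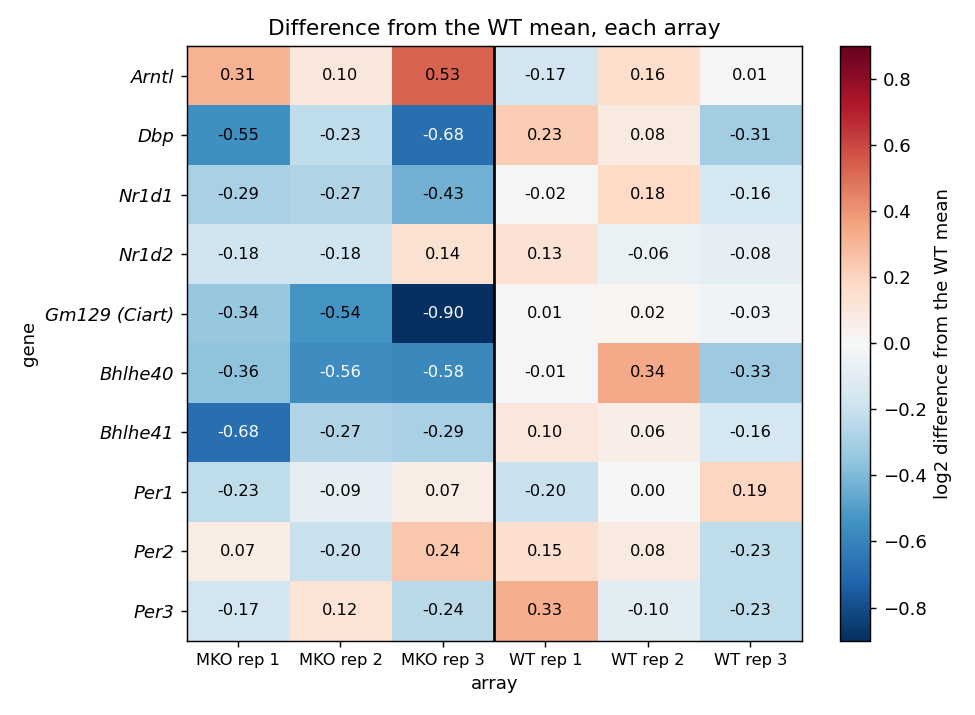
Difference of each array (columns, MKO then WT) from the WT mean of each gene (rows), on the log2 scale, with blue for lower and red for higher values. In the 3 MKO columns Dbp, Nr1d1, Gm129, Bhlhe40 and Bhlhe41 are all below 0 and Arntl is above 0, and WT replicate 3 is also below 0 for each of these 5.

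The position of single arrays within their group recurred across several of these genes. Relative to the WT mean, WT replicate 3 lay at -0.31 for Dbp, -0.33 for Bhlhe40, -0.16 for Nr1d1, -0.16 for Bhlhe41 and -0.03 for Gm129. MKO replicate 2 was the MKO array nearest to WT for Arntl (0.10), Dbp (-0.23), Nr1d1 (-0.27) and Bhlhe41 (-0.27), but not for Gm129 (-0.54) or Bhlhe40 (-0.56). MKO replicate 3 was farthest from WT for Arntl (0.53), Dbp (-0.68), Nr1d1 (-0.43), Gm129 (-0.90) and Bhlhe40 (-0.58), and MKO replicate 1 was so for Bhlhe41 (-0.68). MKO replicate 1, the array set apart on the first principal component, thus lay inside the MKO range for Arntl, Dbp and Nr1d1. Without it 8 of the 10 genes were still lower. The same 4 did not overlap, which was bound to hold, since leaving out an array cannot bring overlap.

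The promoters of the set were searched for clock motifs in RefSeq windows (assembly GRCm38.p6) that run from 250 bases before to 50 bases after a start. The table held 10 windows for 8 of the 10 genes, and Bhlhe40 and Per2 had none. The motifs, on both strands, were the E-box CACGTG, the E′-box CACGTT, the D-box (TTATGTAA or TTACGTAA), a ROR element core TAGGTCA and the cAMP response element TGACGTCA. Among the 10 windows of the set, the E-box stood in 1 window each of 3 genes, Gm129, Bhlhe41 and Per1. It stood in 7.15% of all 32851 windows. The stretches printed here are those with a match, shown so that the motifs can be set beside the differences of their genes. Each is the 250 bases before the start, 5′ to 3′, with the matches in capitals, at chr3:95882229-95882478, minus strand for Ciart, chr6:145865421-145865670, minus strand for Bhlhe41, chr11:98775378-98775627, minus strand for Nr1d1, chr11:69098699-69098948, plus strand for Per1 and chr4:151044666-151044915, minus strand for Per3. For Arntl, 30 bases around its match are shown (chr7:113207530-113207559, plus strand).
Ciart: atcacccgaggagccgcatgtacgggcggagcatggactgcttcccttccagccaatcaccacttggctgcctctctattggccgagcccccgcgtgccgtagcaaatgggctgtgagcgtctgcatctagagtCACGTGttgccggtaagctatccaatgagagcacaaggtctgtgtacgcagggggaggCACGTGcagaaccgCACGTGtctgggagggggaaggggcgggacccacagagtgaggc
Bhlhe41: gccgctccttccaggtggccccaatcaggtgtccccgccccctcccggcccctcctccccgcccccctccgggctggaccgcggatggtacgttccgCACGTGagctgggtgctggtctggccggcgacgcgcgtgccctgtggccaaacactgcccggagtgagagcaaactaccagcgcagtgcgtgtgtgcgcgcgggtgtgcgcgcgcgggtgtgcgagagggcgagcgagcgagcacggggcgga
Nr1d1: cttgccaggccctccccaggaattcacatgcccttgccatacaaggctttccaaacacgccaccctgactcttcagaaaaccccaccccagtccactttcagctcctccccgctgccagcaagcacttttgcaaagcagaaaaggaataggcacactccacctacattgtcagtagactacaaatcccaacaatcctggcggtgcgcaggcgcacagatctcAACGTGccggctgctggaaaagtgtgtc
Per1: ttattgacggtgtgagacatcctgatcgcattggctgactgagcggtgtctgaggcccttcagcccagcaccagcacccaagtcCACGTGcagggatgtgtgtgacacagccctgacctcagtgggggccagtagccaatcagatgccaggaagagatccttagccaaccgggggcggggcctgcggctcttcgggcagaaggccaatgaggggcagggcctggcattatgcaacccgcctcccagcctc
Per3: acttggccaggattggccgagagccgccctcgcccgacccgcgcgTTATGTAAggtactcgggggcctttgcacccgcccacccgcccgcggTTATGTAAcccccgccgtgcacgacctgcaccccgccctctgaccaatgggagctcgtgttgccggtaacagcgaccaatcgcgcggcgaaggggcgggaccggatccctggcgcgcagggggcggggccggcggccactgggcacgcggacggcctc
Arntl: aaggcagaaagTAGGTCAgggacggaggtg

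Ciart held 3 E-boxes, beginning at -116, -58 and -44 from the start, and 29 windows in all (0.0883%) held 3 or more. Bhlhe41 held 1 at -153, and the first of the 2 Per1 windows 1 at -166. Gm129 and Bhlhe41 were lower in MKO with no overlap, while the Per1 arrays overlapped. Nr1d1 had an E′-box at -28 (read as AACGTG on its own strand), a motif of 4.68% of windows. Per3 had 2 D-boxes, at -205 and -158, while 8 windows in all (0.0244%) held 2 or more and 1.06% held at least 1. The ROR element core, the motif through which REV-ERB proteins act, stood in the second Arntl window at 31 bases after the start and in 2.61% of all windows. The cAMP response element was in no window of the set and in 1.79% of all. No match was found in the windows of Dbp and Nr1d2, the first of Arntl or the second of Per1. A match is a run of letters and not a bound site, and sequence outside these windows was not searched.

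Genes of the clock outside the set were then compared in the same fit over all genes. In 8 lists of clock factors, clock-controlled genes and inputs to the clock, 80 genes were measured, and 0 passed at an adjusted p under 0.05 (limma), with 14 at an unadjusted p under 0.05, beside 1.92% of all genes higher and 2.41% lower at that threshold. The lowest adjusted p was 0.666, for Nr4a1. Of the 80, 11 (13.8%) lay apart downward and 7 (8.75%) upward, beside 4.99% and 4.26% of all genes. These lists were written with earlier results of these data known, so nothing is read from their counts, here or below.

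Of the ARNTL partners and ROR receptor genes 3 were higher and 2 lower, with none past the test. Clock stood at 8.40, 8.44 and 8.57 in MKO, against 8.34, 8.26 and 8.40 in WT, a difference of 0.14 (SE 0.09, limma adjusted p = 0.9997). Npas2, a CLOCK paralogue that can replace it, stood at 4.89, 4.92 and 5.01 in MKO, against 4.65, 4.72 and 4.77 in WT, a difference of 0.23 (SE 0.14, limma adjusted p = 0.9997). The arrays of the groups did not overlap for either, by 0.01 for Clock and 0.13 for Npas2. Arntl2 (0.17, SE 0.18) and the ROR receptor gene Rora (-0.05, SE 0.11) overlapped. Over the 5 measured genes of this list the median was 0.14, and it was 0.02 over probe sets above the median level.

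Of the 5 cryptochrome and Period complex partners 4 were lower and 1 higher, with a median of -0.14. Cry1 (-0.14, SE 0.16), Cry2 (-0.15, SE 0.16) and Timeless (-0.17, SE 0.17) overlapped between the groups, as did Id2 (0.11, SE 0.14), which encodes an inhibitor of basic helix-loop-helix factors. The other PAR bZIP genes, relatives of Dbp, were Tef (-0.12, SE 0.13) and Hlf (-0.22, SE 0.15). Both were lower with overlap between the groups. Nfil3, which encodes a repressor at the same D-box and is itself repressed by REV-ERB proteins, differed by 0.26 (SE 0.19), with WT replicate 3 (6.82) near MKO replicate 3 (6.87). The median of these 3 genes was -0.12, and 0.19 with the median of probe sets. None of these genes passed (limma adjusted p = 0.9997 for each).

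**Figure D4:**
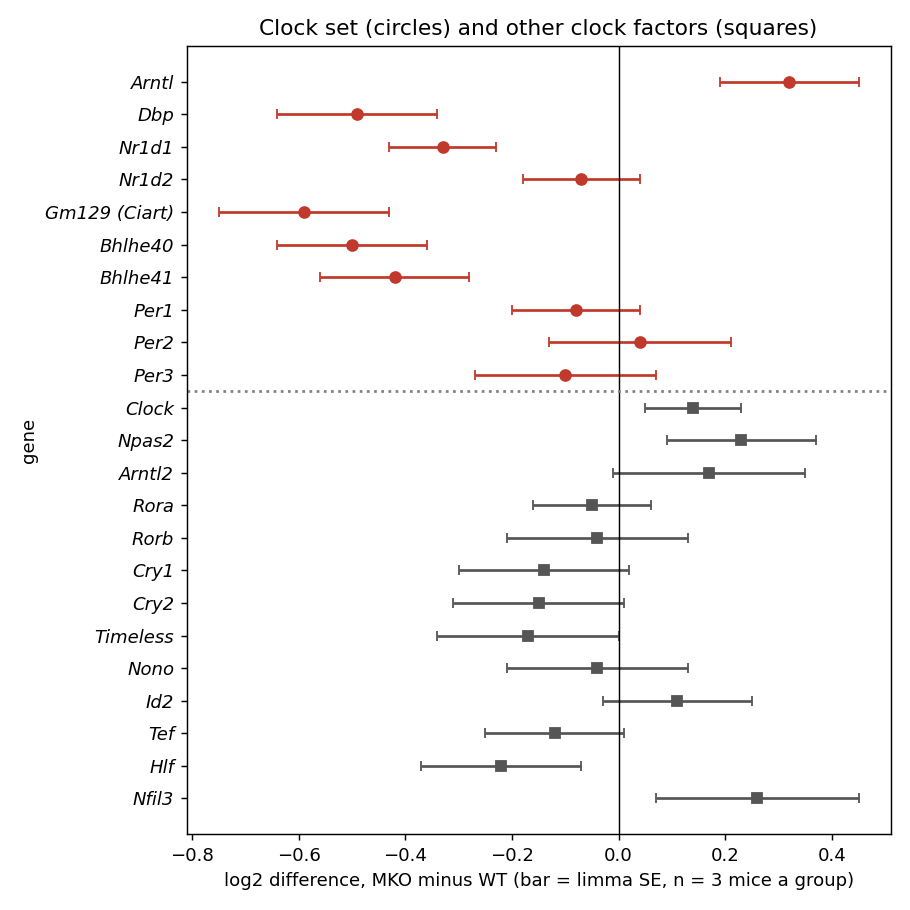
Difference (MKO minus WT, log2, horizontal axis) with the limma SE for the 10 genes of the set (circles) and for 13 other clock factors (squares). The differences of Dbp, Nr1d1, Gm129, Bhlhe40 and Bhlhe41 lie between -0.59 and -0.33, and those of the other factors between -0.22 and 0.26.

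Among 13 enzymes and corepressors that modify clock proteins, 9 were lower and 4 higher, with a median of -0.05. Gsk3b, a kinase that phosphorylates several clock proteins, stood at 8.31, 8.34 and 8.61 in MKO, against 8.76, 8.74 and 8.84 in WT, a difference of -0.36 (SE 0.10). Prkaa1, an AMPK catalytic subunit gene, differed by -0.31 (SE 0.12), and these 2 genes had no overlap, with a gap of 0.01 for Prkaa1. Prkaa2, the other AMPK catalytic subunit gene, differed by -0.01 (SE 0.07), with overlap between the groups. Fbxw11, which encodes a ubiquitin ligase subunit for Period proteins, differed by -0.28 (SE 0.15) and the Period kinase gene Csnk1d by 0.15 (SE 0.11). None of the 13 passed (limma adjusted p = 0.9997 for each).

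Of 17 genes under clock control in several tissues, 13 were higher and 4 lower, with a median of 0.07. The groups did not overlap for 4 that were higher and 2 that were lower, beside 4.26% and 4.99% of all genes. Klf10, a transcription factor gene driven by CLOCK and ARNTL in liver, was lower at 4.87, 5.15 and 4.94 in MKO, against 5.40, 5.53 and 5.67 in WT, a difference of -0.54 (SE 0.14) with no overlap. Lonrf3 (0.53, SE 0.21), Klf15 (0.20, SE 0.11) and Herpud1 (0.18, SE 0.09) were among the 4 higher. None passed (limma adjusted p = 0.9997).

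Lists of genes that respond to inputs of the clock were also described. Of 15 immediate early genes, which like Per1 and Bhlhe40 respond to acute stimuli, 11 were lower and 4 higher, with a median of -0.37, and 8 were lower at an unadjusted p under 0.05, beside 2.41% of all genes. The mean of the list relative to WT ranged from -0.40 to -0.26 in MKO and from -0.16 to 0.23 in WT. Nr4a1 differed by -0.62 (SE 0.13, limma adjusted p = 0.666), Nr4a2 by -1.02 (SE 0.30), Junb by -0.41 (SE 0.12) and Btg2 by -0.37 (SE 0.13), each with no overlap. The part of these genes in the Bhlhe40 result was not tested. Of 13 glucocorticoid-responsive genes 12 were higher and 1 lower, with a median of 0.17, and the difference of Per1 was -0.08. Ddit4 (0.50, SE 0.20), Zbtb16 (0.19, SE 0.08) and Fkbp5 (0.33, SE 0.17) were among those with the smallest p, along with Klf15. The 12 hypoxia-responsive genes had a median of -0.04, with 6 higher and 6 lower, and the difference of Bhlhe40 was -0.50. Ankrd37 (0.34, SE 0.19), Bnip3 (0.14, SE 0.12), Vegfa (-0.12, SE 0.10) and Pfkfb3 (-0.31, SE 0.16) had the smallest p of that list. No gene of the 3 lists passed (limma adjusted p of 0.666 to 0.9997). A list median does not speak for a single gene. The part of glucocorticoid responses in the Per1 values and of hypoxia responses in the Bhlhe40 values was not tested.

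Finally, genes were ranked by how closely they followed Dbp over the 6 arrays. Within the set, Nr1d1 (Pearson r = 0.86), Bhlhe41 (0.82), Gm129 (0.77), Bhlhe40 (0.77) and Per3 (0.75) went with Dbp, Arntl ran against it (-0.83), and Nr1d2 (0.17), Per2 (-0.04) and Per1 (-0.23) had the smallest r in size. After subtracting each group's mean, r was 0.65 for Nr1d1, 0.55 for Bhlhe41, 0.34 for Gm129, 0.45 for Bhlhe40, 0.90 for Per3, -0.63 for Arntl, -0.71 for Per1, -0.06 for Nr1d2 and 0.05 for Per2. Per1 thus ran against Dbp within the groups and little over all 6 arrays. These are descriptions of 6 arrays that share their normalization and fall into 2 groups. The other genes ranked were those with a level above the median gene and at least 2 probe sets. Predicted genes, olfactory and vomeronasal receptor genes and small RNA genes were left out. Of the 10295 genes ranked, 94 (0.913%) had an r of at least 0.9 and 24 (0.233%) of at most -0.9. The 5 closest were Gpi1, a glycolytic isomerase gene (0.993), the endocytic receptor gene Lrp1 (0.990), C80913 (0.990), the sodium-proton exchanger gene Slc9a9 (0.984) and the mannosidase gene Man1c1 (0.981). The 5 most opposed were Dennd4a (-0.985), the lipid-binding protein gene Stard5 (-0.983), Rbpjl (-0.982), the carboxypeptidase gene Cpm (-0.979) and AA465934 (-0.965). None of these 10 was in the related lists.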

How the data were processed

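RNA of the soleus was measured in 3 MKO and 3 WT mice, separate animals per the labels. The authors deposited log2 values, made by RMA in Affymetrix Expression Console per the submitters' processing notes. RMA corrects background, quantile-normalizes the arrays and fits each probe set. Software versions, genome build and annotation release are not stated there. The table held 269751 probe set rows, of which 233753 had exactly 1 symbol in the platform annotation and were used, 5106 had several and 30892 had none. A gene's value was the mean of its probe sets (median 8, and 1 for 2319 genes).

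MKO minus WT was fitted over all 23152 genes with limma 3.58.1 in R 4.3.3 (lmFit, eBayes with a variance trend, two-sided, Benjamini-Hochberg over all genes, threshold 0.05). The labels name a local pooled error test, which was not run here. Exact permutation of 3 against 3 mice cannot go below p = 0.1. With 3 arrays a group, array number limits the precision. The fit was tested on simulated data, with 50 genes changed by each log2 amount. It called 4 of 50 at 0.5, 32 at 1, 30 at -1 and 48 at 2, with 5 false calls. A change of 0.5 was thus mostly not called.

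The 10 genes, the 8 related lists and the 12 marker lists were chosen with earlier results of these data known. Of 85 entries in the related lists, 80 different genes were measured. Named genes were the 10 of the set, up to 4 per related list with the smallest p, the 5 highest and 5 lowest by correlation with Dbp, and Gna13. Prkaa2 was named beside Prkaa1. Motifs were searched with Python 3.11.15. Alternatives are listed in the closing section. Replicate numbers did not pair the arrays (correlations of same-numbered deviations of -0.09, 0.09 and -0.24).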

Additional observations from a re-analysis of the deposited data

How the results depend on the processing

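The differences and counts of the 10 genes, the related list medians and the counts of called genes were recomputed under 15 alternatives: no variance trend, robust moderation, array weights, quantile normalization, median centring, genes above the median level, the median of probe sets, probe sets above the median level, the replicate block, and each of 6 arrays left out. By construction no variance trend, robust moderation, the gene level filter and the replicate block leave the differences and the overlap of the 10 genes as they are, so only the other 11 bear on them. Single related genes, marker lists, probe sets, correlations of the 10 genes with Dbp and motifs were not recomputed. Arntl stayed higher (0.21 to 0.42) and Dbp (-0.64 to -0.37), Nr1d1 (-0.67 to -0.24), Nr1d2 (-0.18 to -0.01), Gm129 (-0.72 to -0.44), Bhlhe40 (-0.66 to -0.33) and Bhlhe41 (-0.61 to -0.28) stayed lower in those 11. The groups did not overlap for Nr1d1, Gm129 and Bhlhe41 in any of them. The number of genes lower with no overlap was 4 to 5 with an array left out, where it could not fall below 4. It was 3 after quantile normalization, where Bhlhe40 overlapped and Arntl was higher with no overlap. Per1 turned to 0.01 without WT replicate 3, Per3 to 0.07 without WT replicate 1, and Per2 to -0.06 without MKO replicate 3, -0.08 without WT replicate 3 and -0.09 with array weights. Over the 11, Per2 ranged from -0.09 to 0.16. The cause was not tested.

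The number of the 10 genes that were lower ranged from 7 to 9 with an array left out, and the number higher from 1 to 3, with 1 higher under array weights. Their median difference ranged from -0.31 (without WT replicate 3) to -0.17 (without MKO replicate 1) with an array left out and was -0.33 with the median of probe sets. Genes at an adjusted p under 0.05 (limma) numbered 0 or 1 in each direction with an array left out: Rrad lower without WT replicate 3 (adjusted p = 0.0365), and 1 immunoglobulin kappa segment gene higher without WT replicate 1 (adjusted p = 0.0153). With array weights 1 gene, Rrad, was lower (limma adjusted p = 0.0156). Median centring turned the split at an unadjusted p under 0.05 to 545 higher and 354 lower, against 444 and 558. It was 805 and 1000 with array weights, 586 and 975 without MKO replicate 3, and 129 and 371 over the 11576 genes above the median level. The related genes had 0 calls in every alternative. With the replicate block, which cannot move a difference in this balanced design (median -0.21), 0 genes were called, with 399 genes higher and 474 lower at an unadjusted p under 0.05, and 1 of 6 arrays correlated best with its own number.

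The medians of the modifier, bZIP and cryptochrome partner lists changed sign with the median of probe sets (0.01, 0.19 and 0.01), and that of the hypoxia list in 5 alternatives. The likeness to Dbp had 2 alternatives: all 10 genes named for it had a correlation of at least 0.9 in size by Spearman's rho and within groups. As these genes were picked as the extremes on the same arrays, this is no independent check. Dim probe sets, 10 of 18 for Per2 and 9 of 24 for Per3, limit what can be said of these genes.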
